A study of Mus musculus with 5 samples.

Results

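The cycling barcodes of 7-day mouse salivary gland organoids (mSGOs) were 100 of the 3221 barcodes that were within the quality limits, and 44975 barcodes were deposited for the 3 day 7 libraries. A barcode is the tag that 10x droplets give to the RNA of 1 cell, and a unique molecular identifier (UMI) marks 1 captured RNA molecule. The cycling barcodes were chosen by their own counts. Each had at most 5% of its UMIs from mitochondrially encoded genes, at least 1% from Malat1, a nuclear-retained RNA, and at least 2000 UMIs in all. Each also had a UMI of at least 5 of 10 cell cycle genes, namely Mki67, Top2a, Cdk1, Ccnb1, Ccna2, Birc5, Cenpf, Ube2c, Tpx2 and Nusap1. The other barcodes are those within the same limits that had fewer of the 10 genes, and they numbered 822 in control, 1175 in photon and 1124 in proton organoids. Since these genes chose the members, the contrast between cycling and other barcodes is a description, and no test was made of it.

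The organoids were grown in Matrigel with WRY medium from submandibular glands of 4 C57BL/6 mice aged 8 to 12 weeks, and the labels do not say that each library came from other animals than the next. Control organoids were not irradiated, photon organoids were given 7 Gy of photons on day 5 of culture and protons at the plateau of the beam were given to the proton organoids at the same dose and day. All organoids were collected on day 7, dissociated with trypsin, and sorted for 45000 cells per library that excluded propidium iodide, so cells with open membranes were removed before the droplets were made. Each condition is 1 library, so a difference between conditions is a difference between 2 libraries, has no replicate check and carries no p-value.

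A dividing cell copies its DNA in S phase, checks it in G2 and separates the copies in mitosis. The MCM helicase and its partners act in the first step, the kinase Cdk1 with cyclins A2 and B1 drives entry into mitosis, and the anaphase-promoting complex, with Cdc20 and Ube2c, ends it. Damaged DNA activates p53, whose target Cdkn1a (p21) inhibits the cyclin-dependent kinases. In ducts of the salivary gland, Krt14 and Krt5 mark basal cells, Krt8 and Krt18 mark luminal cells, and the basal layer is thought to hold cells that can divide and renew the gland.

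Cycling barcodes made up 53 of 875 control barcodes, a share of 6.06% with an exact Clopper-Pearson 95% interval of 4.57 to 7.85%. In photon organoids they were 25 of 1200, or 2.08% (1.35 to 3.06%), and in proton organoids 22 of 1146, or 1.92% (1.21 to 2.89%). The control interval lies above those of both irradiated libraries, whose intervals overlap each other. All intervals given here cover counting error only, not the spread between cultures, which 1 library per condition cannot show.

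Depth bears on this share, because a deeper barcode shows more of the 10 genes. The deposited barcodes held 16908611 UMIs in control, 30957157 in photon and 29509628 in proton organoids, and the cycling barcodes 528037, 242935 and 225322 of them. Single cycling barcodes held 2369 to 26595 UMIs in control organoids with a median of 8930, 4225 to 17201 with a median of 10149 in photon organoids, and 6422 to 18796 with a median of 10156 in proton organoids. The other barcodes had medians of 6619, 5824 and 6104.5 UMIs. Among barcodes with 2000 to 5000 UMIs, 11 of 252 control barcodes were cycling but only 1 of 481 photon and 0 of 407 proton barcodes. A count of 0 (3 counts of the total) allows a share of up to 0.737% there, and the exact interval reaches 0.902%. From 5000 to 10000 UMIs the shares were 5.57% (3.56 to 8.24%) in control, 2.17% (1.09 to 3.85%) in photon and 1.90% (0.914 to 3.46%) in proton organoids. From 10000 to 20000 UMIs they were 7.00%, 6.37% and 5.80%, with 14 of 200, 13 of 204 and 12 of 207 barcodes and intervals that overlap. Above 20000 UMIs, 5 of 10 control barcodes were cycling (50.0%, 18.7 to 81.3%) and 0 of 8 photon and 0 of 5 proton barcodes, which allows shares of up to 37.5 and 60.0% by the same 3 counts and 36.9 and 52.2% by the exact interval. The control interval (2.20 to 7.68%) lay above those of both irradiated libraries from 2000 to 5000 UMIs. From 5000 to 10000 UMIs it overlapped that of photon but not that of proton, and from 10000 to 20000 UMIs it overlapped both. When every barcode was thinned at random to 2000 UMIs, at least 2 of the 10 genes remained in 9.26% of the control barcodes (7.42 to 11.4%), against 4.5% for photon (3.40 to 5.83%) and 5.15% for proton (3.94 to 6.59%), and the control interval was again above the others.

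**Figure D1:**
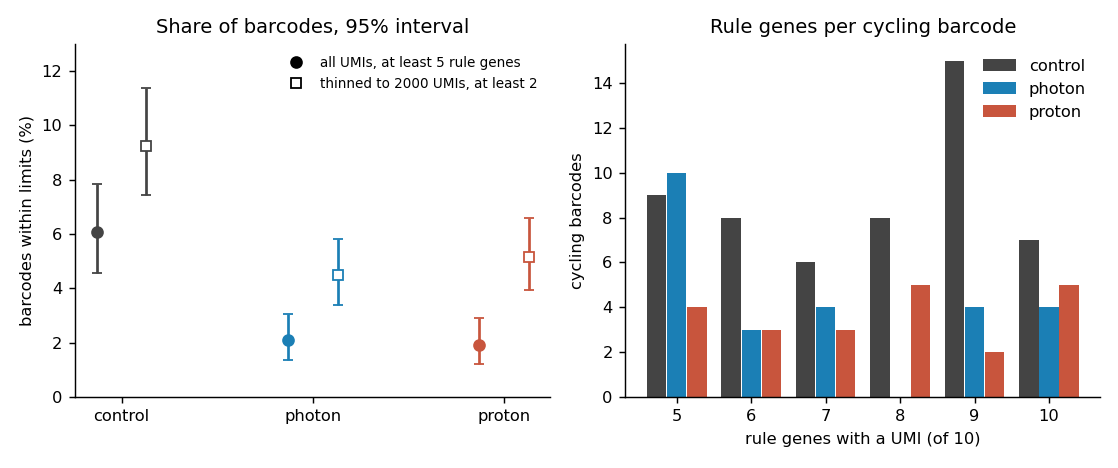
The left panel plots the share of barcodes within the limits (%) that were cycling in each library (filled circles) and the share with at least 2 of the 10 genes after thinning to 2000 UMIs (open squares), with exact 95% intervals. The right panel counts the cycling barcodes by how many of the 10 genes they held, where control organoids have 15 at 9 genes and photon organoids have 10 at the minimum of 5 genes.

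The cycling barcodes differed in how far they passed the minimum. In control organoids 30 of 53 (56.6%, 42.3 to 70.2%) held at least 8 of the 10 genes. The same was true of 8 of the 25 in photon (32.0%, 14.9 to 53.5%) and of 12 of the 22 in proton organoids (54.5%, 32.2 to 75.6%). The minimum of 5 was just met by 9 control, 10 photon and 4 proton barcodes, while 24, 17 and 16 barcodes had 4 of the genes and were left out. At 4 genes the median barcode held 7 UMIs of the 10 genes in control, 6 in photon and 5.5 in proton organoids, against 8, 7.5 and 9 at 5 genes. The other G2 and mitosis genes, which the rule did not use, had medians of 12.9, 17.0 and 17.8 UMIs per 10000 at 4 genes and of 24.4, 23.7 and 31.8 at 5 genes. A further 27 control, 7 photon and 22 proton barcodes had at least 5 of the genes but missed a quality limit, mostly that on the mitochondrial share (15, 3 and 14 barcodes) or on Malat1 (11, 4 and 8).

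Markers of the labelled epithelium were present and those of other cell types few. Krt14, Krt5 and Epcam UMIs were found in each of the 53 control, 25 photon and 22 proton barcodes. For Krt14 this does not separate expression from free RNA, since barcodes with under 1000 UMIs and a Malat1 share under 0.1%, which hold little nuclear RNA, also had a Krt14 UMI in 97.8, 98.5 and 99.0%, at 5741, 6252 and 6369 CPM (UMIs per 1000000). Krt8 was found with Krt14 in 38, 14 and 18 of them, or 71.7, 56.0 and 81.8%, against 51.5, 45.2 and 46.9% of the shallower other barcodes. Ptprc, which marks all leukocytes, had no UMI in any cycling barcode, nor in any of the other barcodes. Of 19 immune genes 17 were at 0 in the cycling barcodes of each library, and the summed level of the list was 26.6 to 41.2 CPM, which came from the macrophage gene Cd68 and from H2-Ab1. A Cd68 UMI was found in 5 of 53, 7 of 25 and 3 of 22 cycling barcodes (9.43, 28.0 and 13.6%) and in 11.1, 17.0 and 14.6% of the other ones. The 9 fibroblast genes and 6 Schwann and neural genes had no UMI, where a count of 0 (3 UMIs of the total) allows up to 5.68 CPM in control, 12.3 in photon and 13.3 in proton organoids. The 8 endothelial genes summed to 1 or 2 UMIs per library and the 6 erythroid genes to 1 UMI in all. No cycling barcode sequence was shared between libraries.

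The 10 genes that chose the barcodes differed in level among the members. Ube2c, the ubiquitin-conjugating enzyme of the anaphase-promoting complex, had the most UMIs, with 1064 CPM in control, 947 in photon and 1327 in proton cycling barcodes, against 51.7, 64.4 and 67.3 CPM in the other barcodes. Top2a, the topoisomerase that untangles replicated chromosomes, had 547, 366 and 404 CPM against 24.4, 16.8 and 15.2. Cenpf, a kinetochore protein, was at 409, 445 and 462 CPM, and Birc5 (survivin), a member of the chromosomal passenger complex, at 333, 296 and 404 CPM. Mki67, which coats mitotic chromosomes, was found in 42 of 53 control, 16 of 25 photon and 14 of 22 proton cycling barcodes and had 307, 165 and 209 CPM. Its level per barcode had a median of 2.06, 1.38 and 1.58 UMIs per 10000 and a highest value of 30.3, 5.19 and 7.31. Ccna2 (cyclin A2) had the fewest UMIs of the 10 in irradiated organoids, with 157, 53.5 and 88.8 CPM. It was found in 37, 7 and 12 barcodes, while Nusap1 was found in 11 proton barcodes.

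RNA of these genes was also present in the barcodes with little nuclear RNA, which numbered 727 in control, 1190 in photon and 2894 in proton organoids. They had a UMI of Mki67 in 1.51, 0.420 and 0.726% and a UMI of Ube2c in 8.80, 7.23 and 12.0%. Other barcodes within the limits had Mki67 in 6.33, 2.64 and 2.22% and Ube2c in 27.6, 27.1 and 27.5%, at several times that depth. Per UMI the barcodes with little nuclear RNA had more of these 2 genes and of Top2a than the other barcodes and less than the cycling ones, with Ube2c at 125, 103 and 162 CPM, Top2a at 65.5, 28.7 and 34.8 CPM and Mki67 at 20.6, 5.73 and 9.68 CPM, the latter against 11.2, 4.49 and 4.04 CPM in the other barcodes. The rule sets this order in part, since the other barcodes are those left after barcodes rich in these genes were taken out.

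The promoters of 8 cell cycle genes are shown because promoters of this class are known for a cell cycle homology region (CHR) and for CCAAT boxes. Each line gives 150 bases, 5′ to 3′, from 130 before to 20 after the start site in the RefSeq table for GRCm38.p6. Capitals mark 3 kinds of match on either strand. A CHR match is TTTGAA or else TTCGAA, and a CCAAT box is that string of letters. An E2F-type match is TTCCCGC or the variant TTCGCGC, and it may also be TTGCCGC or the further variant TTGGCGC, whose reverse complement can overlap a CCAAT box. The first 4 genes were used by the rule, Cdc20 and Hmmr act in mitosis, and Pclaf and Mcm6 act in DNA replication.
Mki67 (chr7:135716360-135716509, minus strand): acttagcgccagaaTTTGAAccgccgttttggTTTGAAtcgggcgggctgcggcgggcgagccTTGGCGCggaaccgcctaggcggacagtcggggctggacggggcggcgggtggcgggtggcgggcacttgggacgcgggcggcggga
Top2a (chr11:99024170-99024319, minus strand): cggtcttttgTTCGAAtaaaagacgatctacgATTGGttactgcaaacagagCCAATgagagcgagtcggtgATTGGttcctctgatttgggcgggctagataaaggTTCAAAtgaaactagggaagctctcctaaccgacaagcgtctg
Cdk1 (chr10:69352893-69353042, minus strand): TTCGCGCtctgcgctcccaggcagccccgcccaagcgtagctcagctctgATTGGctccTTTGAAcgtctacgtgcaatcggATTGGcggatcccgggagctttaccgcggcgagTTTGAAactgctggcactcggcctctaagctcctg
Ube2c (chr2:164769799-164769948, plus strand): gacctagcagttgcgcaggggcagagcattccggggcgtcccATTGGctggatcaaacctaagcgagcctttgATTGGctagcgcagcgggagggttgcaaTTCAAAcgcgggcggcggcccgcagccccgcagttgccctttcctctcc
Cdc20 (chr4:118437324-118437473, minus strand): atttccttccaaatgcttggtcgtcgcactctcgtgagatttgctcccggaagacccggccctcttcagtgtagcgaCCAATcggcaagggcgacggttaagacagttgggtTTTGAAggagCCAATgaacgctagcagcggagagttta
Hmmr (chr11:40733418-40733567, minus strand): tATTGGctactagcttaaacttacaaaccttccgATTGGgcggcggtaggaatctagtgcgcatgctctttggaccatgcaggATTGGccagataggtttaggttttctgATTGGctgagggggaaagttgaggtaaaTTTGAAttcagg
Pclaf (chr9:65890193-65890342, plus strand): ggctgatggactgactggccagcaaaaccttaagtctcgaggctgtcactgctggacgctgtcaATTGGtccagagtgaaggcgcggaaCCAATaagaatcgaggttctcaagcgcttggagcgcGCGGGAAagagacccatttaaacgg
Mcm6 (chr1:128359686-128359835, minus strand): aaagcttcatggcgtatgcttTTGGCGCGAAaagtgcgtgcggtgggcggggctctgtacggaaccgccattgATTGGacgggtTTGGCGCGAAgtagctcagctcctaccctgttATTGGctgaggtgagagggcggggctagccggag
Ccna2 and Tpx2 are named only. The 8 printed promoters are examples that each hold a match. Among rule genes not printed, Ccnb1 had no CHR match in its 300 bases, and Birc5 and Nusap1 had no match of any kind. Tacc3 and Cenpe had no CHR match, and Dut and Tyms had no E2F-type match. Over the whole 300 bases of each promoter, a CHR match was found in 5 of the 8 rule genes with an entry (62.5%) and in 31 of 41 other G2 and mitosis genes (75.6%), against 21.7% of all 27025 promoters in the table. An E2F-type match was found in 3 (37.5%) and 4 (9.76%), against 10.9%. A CCAAT box was found in 6 (75%) and 30 (73.2%), against 41.1%. The same shares are void for the 50 replication and S phase genes, of which 38 had an entry, and for the 6927 genes compared below, of which 5489 had one, since under 80% of each set could be searched. A match is a string of letters in a window and not a measured binding site.

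Across all genes, 6927 had at least 50 UMIs in each library over both classes. Of these 124 (1.79%) were at least 2-fold higher in cycling than in other barcodes in all 3 libraries and 77 (1.11%) were at least 2-fold lower. Ratios are log2 ratios of CPM with 1 CPM added, and the median over all genes was 0.09 in control, 0.04 in photon and 0.04 in proton organoids. The contrast is the one that chose the barcodes, so nothing is read from these counts.

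The cycling barcodes also held RNA of many G2 and mitosis genes that the rule did not use. Of 49 such genes 21 passed the UMI minimum, and 20 of them were over 2-fold higher in all 3 libraries, with medians of 3.80 in control, 3.39 in photon and 3.74 in proton organoids. The minimum counted the UMIs of the cycling barcodes too, so some genes passed only through them. Hmmr had 32, 43 and 42 UMIs and Tacc3 23, 30 and 23 UMIs in the other barcodes. A gene that passed in this way had to be higher, so nothing is read from these counts. The exception was Pttg1 (securin), with log2 ratios of 0.81, 0.58 and 0.71. The highest was Hmmr (chr11:40701388-40733464 in GRCm38.p6), a spindle-associated protein and hyaluronan receptor, at 396, 305 and 346 CPM in the 3 cycling groups and 5.2, 5.52 and 5.47 CPM in the other barcodes, which gave log2 ratios of 6.00, 5.55 and 5.75. It was detected in 43 of 53 control, 16 of 25 photon and 16 of 22 proton cycling barcodes, but in 3.23 to 3.47% of the other barcodes. Cenpe, a kinetochore motor, had log2 ratios of 4.63, 4.17 and 4.22, and Tacc3, which stabilizes spindle microtubules, had 4.52, 4.42 and 5.16. Cdca8 (borealin), a partner of Birc5, had 437, 276 and 386 CPM against 19.8 to 22.3 CPM in the other barcodes. Anln (anillin) and Ect2, which act in cytokinesis, had ratios of 4.56, 3.90 and 4.61 and of 4.21, 3.78 and 3.74. Cdc20, the activator of the anaphase-promoting complex whose promoter is printed above, had 157, 94.7 and 107 CPM against 4.95 to 6.67 CPM. Prc1 and Cenpa were more abundant, with 841, 510 and 821 CPM and 561, 338 and 537 CPM, and had ratios between 2.71 and 3.63.

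Genes that copy DNA in S phase made up a further list. Of 50 replication and S phase genes 27 passed, 25 were higher in all 3 libraries and 13 of those by at least 2-fold, against 24.9 and 1.79% of all genes, with medians of 1.08 in control, 1.40 in photon and 1.90 in proton organoids. The same minimum applied to them. Pclaf, which binds the replication clamp PCNA, is not on that list but was among the 12 genes highest over all 3 libraries, with 121, 156 and 169 CPM against 3.74, 4.23 and 1.69 CPM and ratios of 4.69, 4.91 and 5.98. It was found in 14 of 53, 9 of 25 and 7 of 22 cycling barcodes, so most barcodes chosen by the rule had none. With the rule applied after thinning to 2000 UMIs it had 4, 1 and 0 UMIs, too few for a ratio. Rrm2, a subunit of ribonucleotide reductase, had 70.1, 161 and 151 CPM and ratios of 1.66, 2.50 and 2.58. Dut and Gmnn (geminin) had ratios between 1.54 and 2.44. Ccne1 (cyclin E1), which acts before S phase, had 2 UMIs in the cycling barcodes of each library, and its ratios of -1.39 [-4.68, 0.30], -0.30 [-3.41, 1.56] and -0.39 [-3.50, 1.46] had counting intervals that span 0. Of the replication-dependent histones, whose mRNAs mostly lack a poly(A) tail, 6 of 67 passed and 1 was over 2-fold higher in all 3 libraries. This was Hist1h1b, a linker histone, with 417, 428 and 346 CPM against 32.5, 29.3 and 21.0 CPM, from 27, 14 and 9 barcodes.

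Individual barcodes leaned to one end of the cycle. The summed UMIs of the 49 G2 and mitosis genes had a median of 84.3 per 10000 in control (7.01 to 186), 33.7 in photon (8.57 to 112) and 44.9 in proton barcodes (13.5 to 165). The 50 S phase genes had medians of 9.96 (1.30 to 58.1), 14.9 (1.35 to 54.0) and 13.1 (2.11 to 71.6). In control organoids 6 of 53 barcodes had the larger S phase sum (11.3%, 4.27 to 23.0%). In photon organoids these were 4 of 25 (16.0%, 4.54 to 36.1%), and in proton organoids 4 of 22 (18.2%, 5.19 to 40.3%). These intervals overlap, and in 6, 5 and 5 barcodes the sums lay within 1.5-fold of each other, so a barcode was not given a phase. The low share on the S phase side is partly set by the rule, since most of its genes peak in G2 and mitosis.

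**Figure D2:**
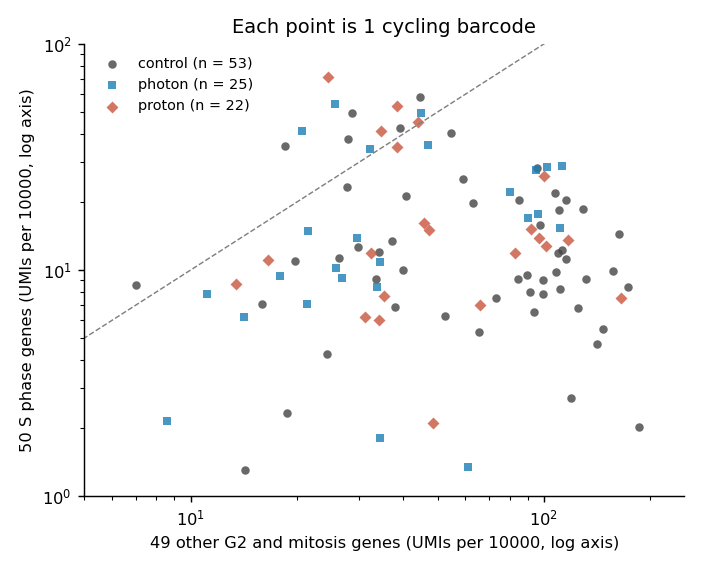
Each point is 1 cycling barcode, placed by its UMIs per 10000 from 49 G2 and mitosis genes that the rule did not use (x, log axis) and from 50 S phase genes (y, log axis). Points above the dashed line, 6 of 53 in control, 4 of 25 in photon and 4 of 22 in proton organoids, had the larger S phase sum.

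Genes that serve dividing nuclei without being specific to a phase were moderately higher. Of 31 chromatin, tubulin and nuclear transport genes 28 passed, 24 were higher in all 3 libraries and 10 by at least 2-fold. Over all genes these shares were 24.9 and 1.79%, and the medians of the list were 1.11, 0.98 and 1.04. For the lists of this paragraph the minimum again counted the UMIs of the cycling barcodes, so scarce genes could pass through them. Tubb5, a tubulin chain, had 1443, 1070.2 and 1407 CPM against 654, 515 and 677 CPM, and H2afz, a histone variant, had ratios of 0.80, 0.82 and 1.03. Of 28 genes of damage signaling and repair 9 passed and 5 were over 2-fold higher in all 3 libraries, against 1.79% of all genes. These were Chek2, Rad18, H2afx, Tipin and Topbp1, and H2afx, the histone phosphorylated beside DNA breaks, had the most UMIs of them with 191, 156 and 235 CPM against 24.3 to 27.3 CPM. Of 28 regulators of the cycle 21 passed and 3 were over 2-fold higher, again against 1.79% of all genes. They were Cdc25b, a phosphatase that activates Cdk1, E2f8, a repressor of the E2F family, and the inhibitor Cdkn2d. Ccnd1 (cyclin D1), which acts in G1, was close to the other barcodes, with ratios of 0.24, 0.39 and 0.37. Of 23 nucleolar and Myc target genes and 81 ribosomal protein genes that passed, 0 were 2-fold higher or lower in all 3 libraries.

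Many genes of a cornifying squamous program had lower levels in cycling barcodes. Here the minimum was met through the other barcodes, so a gene with few UMIs in the cycling ones could pass, and the contrast is again the one that chose the barcodes. Of 26 such genes 18 passed, 16 were lower in all 3 libraries and 13 of these by at least 2-fold, against 17.4 and 1.11% of all genes, with medians of -1.77 in control, -1.45 in photon and -1.77 in proton organoids. Sprr1a, a precursor of the cornified envelope, had 81.4, 128 and 53.3 CPM in the cycling barcodes against 820, 1239 and 1023 CPM in the others, which gave -3.32, -3.27 and -4.24. Of these UMIs 55.8% in control and 51.6% in photon came from 1 barcode each. Sprr2f had 583, 506 and 435 CPM against 3337, 3302 and 2755 CPM. It was still detected in 43, 23 and 19 cycling barcodes, and its highest value was 40.9, 27.4 and 20.7 UMIs per 10000 against 877, 940 and 836 in the other barcodes. The wound keratins Krt6a and Krt6b had ratios between -1.22 and -2.94, and Calml3, a calmodulin-like protein of stratified epithelium, had 1 UMI in the cycling barcodes of each library against 24.6 to 42.7 CPM in the others. Gjb2 (connexin 26), Cnfn (cornifelin) and Krt23 were also among the 12 lowest. The chemokine Cxcl2 was detected in 5 of 53, 1 of 25 and 3 of 22 cycling barcodes, with 13.3, 4.12 and 17.8 CPM against 62.8, 74.8 and 81.1 CPM in the others.

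Basal and luminal duct genes did not set the cycling barcodes apart to that degree. All 12 basal genes passed and 0 were 2-fold higher or lower in all 3 libraries, with medians of 0.27, -0.08 and -0.22. Krt14 was nonetheless lower in each library, at 3558, 3676 and 4256 CPM against 5305, 4969 and 5085 CPM, with ratios of -0.58, -0.43 and -0.26. All 13 luminal genes passed as well. Of these 4 were higher and 5 lower in all 3 libraries, 1 of the latter by at least 2-fold, against 24.9, 17.4 and 1.11% of all genes. The medians were -0.06, 0.08 and -0.07. The 4 higher genes were Krt8, at 299, 185 and 178 CPM against 167, 127 and 141 CPM, Krt18, Wfdc2 and Epcam, which had ratios of 1.17, 0.59 and 0.52. The one at least 2-fold lower was Elf3, an epithelial transcription factor, with -1.25, -1.49 and -1.54. Of the 4 genes of a list called stem/progenitor I after a population in the study, Sox9, a transcription factor of duct progenitors, was lower in all 3 libraries (-0.53, -0.62 and -0.63), as were Cd24a and Cd164, while Foxc1, a forkhead factor, had -0.26, -1.54 and 0.26. The 5 genes of a second such list, stem/progenitor II, were drawn up here from genes the study names in different settings. Itgb1 (CD29) and Cd44, both receptors for the matrix, were higher in control (0.65 and 0.52) and photon (0.53 and 0.30) but not in proton barcodes (-0.06 and -0.07). Of its other members, Nt5e (CD73) was lower in all 3 libraries (-1.15, -0.65 and -1.02), Hmga2 had 0.20, -0.32 and -0.41, and Trp63, the basal transcription factor p63, had -0.06, -0.82 and 0.24.

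**Figure D3:**
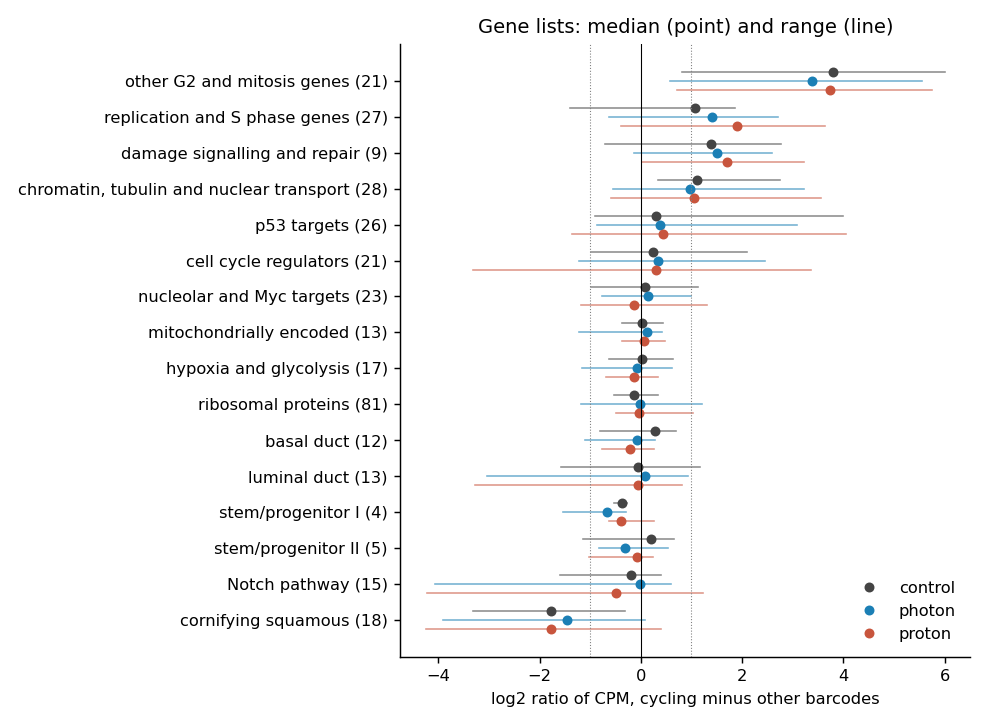
For each gene list, with the number of genes that passed the UMI minimum in brackets, the points give the median log2 ratio of CPM between cycling and other barcodes in each library and the lines the lowest and highest gene. Dotted lines mark 2-fold. The points of the other G2 and mitosis genes lie at 3.39 to 3.80 and those of the cornifying squamous genes at -1.77 to -1.45. Some genes of the former passed the minimum only through the cycling barcodes, so the order of the lists is not read.

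The cycling barcodes of the irradiated organoids were next compared with those of the control. This asks whether the RNA of cells still in cycle differed 2 days after irradiation. Among 2004 genes with at least 50 UMIs over both sums, 29 (1.45%) were at least 2-fold higher and 40 (2.00%) at least 2-fold lower in photon cycling barcodes. Among 1952 genes for proton, 27 (1.38%) were higher and 36 (1.84%) lower. The 2 comparisons share the control barcodes, so their values are given side by side. Brackets below give conditional exact binomial 95% intervals of the log2 ratio, which cover counting of UMIs only and treat UMIs of 1 barcode as independent.

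Targets of p53 were higher in cycling barcodes of both irradiated libraries. Of the 15 p53 targets that passed against photon 13 were higher, with a median of 0.65, and 13 of 14 against proton with a median of 0.54. Over all genes 48.6 and 50.4% were higher and the medians were -0.01 and 0.01. In the other barcodes 56.0 and 56.7% of the same genes were higher and 44.0 and 43.3% lower. The medians of the p53 targets among the other barcodes were 0.48 and 0.51. Cdkn1a (chr17:29090979-29100722 in GRCm38.p6), the p21 inhibitor, had 390 CPM (exact Poisson 339 to 447) in control, 774 (667 to 893) in photon and 888 (769 to 1020) in proton cycling barcodes, or log2 ratios of 0.99 [0.70, 1.28] and 1.18 [0.90, 1.47]. In the other barcodes it had 609, 672 and 798 CPM, with ratios of 0.14 [0.08, 0.20] and 0.39 [0.33, 0.45]. By CPM the cycling barcodes were below the other barcodes in control (-0.64) and slightly above them in photon (0.20) and proton organoids (0.15). A UMI of Cdkn1a was found in 42 of 53 control cycling barcodes and in all 25 photon and 22 proton ones, with medians of 2.36, 5.58 and 9.59 UMIs per 10000. With the same barcodes thinned to 2000 UMIs each, a UMI was left in 54.7% in control, 72.0% in photon and 59.1% in proton organoids, against 52.2, 60.1 and 64.7% of the other barcodes, so at equal depth the share was not lower in cycling barcodes of the control nor higher in those of proton organoids. The barcodes with little nuclear RNA had Cdkn1a at 303, 370 and 404 CPM, in 19.9, 23.5 and 26.7% of them. Its level there also differed between libraries in the same direction, and the part of free RNA in the cycling values was not tested. When barcodes were thinned to 2000 UMIs before they were chosen, which left 27 control, 7 photon and 6 proton barcodes, Cdkn1a had 31 UMIs of 54000 in control, 7 of 14000 in photon and 6 of 12000 in proton barcodes, or 574, 500.0 and 500.0 CPM and ratios of -0.20 in both.

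Other p53 targets varied in size. Trp53inp1, a stress-induced cofactor of p53, had 51.1, 181 and 209 CPM, with ratios of 1.80 [1.10, 2.57] and 2.01 [1.32, 2.77] against 0.88 and 0.99 in the other barcodes. Aen, a nuclease, had 43.6, 123 and 120 CPM, with 1.48 [0.67, 2.35] and 1.44 [0.60, 2.33] against 0.53 and 0.65. Ccng1 (cyclin G1), which was higher to a like degree in both classes, had ratios of 0.90 and 1.14 against 0.88 and 0.98. Rps27l was higher in photon (1.01 [0.75, 1.26]) than in proton cycling barcodes (0.36 [0.06, 0.66]), and proton against photon it had -0.64 [-0.95, -0.34]. Mdm2, the ubiquitin ligase that removes p53, had intervals that span 0 in both. Perp, a desmosomal target that had 3041, 2964 and 3755 CPM, differed little, with -0.04 and 0.30. As medians over barcodes, the 30 p53 targets made up 57.9 UMIs per 10000 in control, 69.2 in photon and 91.7 in proton cycling barcodes. With all 10 rule genes the sum was 27.5 to 70.3 in control, 49.95 to 69.2 in photon and 48.5 to 88.9 in proton. With 5 rule genes it was 49.1 to 110 in control, 49.4 to 192 in photon and 112 to 151 in proton. How far the number of rule genes bears on the p53 differences was not tested.

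Genes of G2 and mitosis were mostly lower in the irradiated libraries. Of 31 G2 and mitosis genes that passed 25 were lower in photon cycling barcodes (median -0.34) and 23 in proton ones (median -0.18), and among the other barcodes the medians were -0.03 and -0.25. Over all genes 51.4% were lower in photon and 49.6% in proton cycling barcodes. The per-barcode sums of the list differed more, with the medians of 84.3, 33.7 and 44.9 UMIs per 10000 given above. At the minimum of 5 rule genes the medians were 24.4, 23.7 and 31.8, so the list rose with the genes that chose the barcodes. The 10 rule genes themselves had medians of 35.7, 17.7 and 30.9 UMIs per 10000. Irradiation and how far the members passed the rule cannot be told apart here. Prc1, which bundles spindle microtubules, had -0.72 [-1.02, -0.43] in photon and -0.03 [-0.29, 0.22] in proton barcodes, and Cenpa, the centromeric histone, had -0.73 [-1.10, -0.37] and -0.06 [-0.38, 0.25]. Cks2, a subunit of cyclin-dependent kinases, was lower in both, at -0.80 and -0.93. Ccna2 had -1.54 [-2.52, -0.70] and -0.82 [-1.61, -0.11], and Cdk1 had -0.02 and 0.60, but both were used to choose the barcodes. Few S phase genes passed. Of 9 against proton all 9 were higher, with a median of 0.70, and of 8 against photon 3 were, with a median of -0.07. Among the other barcodes 7 of the 9 were lower for proton (median -0.50), and the median for photon was -0.15. Rrm2 was higher in both, at 1.18 [0.51, 1.89] and 1.10 [0.39, 1.82], against 0.34 and 0.17 in the other barcodes. Ezh2, the methyltransferase of Polycomb repressive complex 2, had 178, 65.9 and 155 CPM, with -1.42 [-2.30, -0.66] in photon and -0.20 [-0.80, 0.38] in proton barcodes, and it was detected in 40 of 53, 13 of 25 and 20 of 22 of them.

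Of 24 Notch pathway genes 3 passed, namely Notch1, Hes1 and Jag2, and the former pair were higher in both irradiated libraries in cycling and in other barcodes. Notch1, the receptor, had 193 CPM (158 to 234) in control, 321 (254 to 401) in photon and 351 (278 to 437) in proton cycling barcodes, with 0.73 [0.29, 1.17] and 0.86 [0.42, 1.30] against 0.59 and 0.80 in the other barcodes. Hes1, a repressor that Notch induces, had 51.1, 144 and 249 CPM, with 1.48 [0.73, 2.27] and 2.26 [1.59, 3.0] against 0.94 and 0.90. It was detected in 17 of 53, 15 of 25 and 15 of 22 cycling barcodes, and after thinning in 5.66, 24.0 and 31.8%. In the barcodes with little nuclear RNA, Hes1 had 54.3, 114 and 125 CPM and Notch1 107, 153 and 150 CPM, so their levels there differed from control in the same direction, and the part of free RNA in the cycling values was not tested. With the rule applied after thinning, Notch1 had 15, 4 and 5 UMIs, or 278, 286 and 417 CPM, and its ratios were 0.04 and 0.58. The ligand Jag1 had intervals that span 0 against control in both libraries, from 26, 15 and 4 UMIs, too few to pass. So had Jag2, with -0.65 in photon and 0.28 in proton cycling barcodes against 0.04 and 0.10 in the other ones.

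Further genes that were higher in both irradiated libraries included Serpine2, a secreted protease inhibitor, with 62.5, 193 and 226 CPM and ratios of 1.61 and 1.84 against 1.33 and 1.40 in the other barcodes. Fos, an AP-1 subunit that dissociation also induces, had 1.23 and 1.21 against 1.25 and 1.18 in the other barcodes, but 37.2% of its control UMIs came from 1 barcode, and without it the ratios became 1.85 and 1.82. Id1, an inhibitor of differentiation factors, had 0.54 [0.06, 1.02] in photon and 1.40 [0.99, 1.82] in proton barcodes. Krt15, a basal keratin, had 320, 506 and 941 CPM, but 37.7% of the proton UMIs came from 1 barcode, and without it the ratio of 1.55 became 0.98. Chd9, a chromatin remodeler, had 1.83 and 2.59 and was also higher in the other barcodes (0.80 and 2.13).

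Of the fixed lists of secretory and contractile lineages few genes passed. Among 11 pro-acinar genes 1 passed, Sostdc1, and it was lower in both irradiated libraries. Among 12 myoepithelial genes 4 passed and 3 were lower in each, against 51.4 and 49.6% of all genes. Their medians were -0.78 for photon and -0.50 for proton. In the other barcodes 3 of the 4 were lower too, with medians of -0.46 and -0.53. Sostdc1, a secreted Wnt and BMP antagonist, had 335, 107 and 111 CPM in cycling barcodes and ratios of -1.64 [-2.30, -1.05] and -1.59 [-2.26, -0.99], against -0.42 and -0.65 in the other barcodes, and came from 21 of 53, 10 of 25 and 5 of 22 barcodes. Csrp1, a muscle LIM protein, had 144, 32.9 and 84.3 CPM, with -2.09 [-3.39, -1.08] and -0.76 [-1.58, -0.03], and Lgals7 (galectin 7) had -1.05 [-1.48, -0.64] and -1.65 [-2.20, -1.15]. Actb, the cytoplasmic actin, had 2091, 1305 and 892 CPM, with -0.68 [-0.86, -0.50] and -1.23 [-1.45, -1.01] against -0.34 and -0.39. Epcam had -0.62 and -0.66 against -0.03 and -0.01. Hypoxia and glycolysis genes were lower in 13 of 13 genes for photon (median -0.58) and 12 of 14 for proton (median -0.39). Over all genes 51.4 and 49.6% were lower, and in the other barcodes the medians of the list were -0.22 and -0.11. Ndufa4l2, a hypoxia-induced subunit paralog of the respiratory chain, had 356, 132 and 182 CPM, and Ndrg1 had -1.09 and -0.79. Mitochondrially encoded genes were higher in 10 of 10 genes for photon (median 0.42) and in 9 of 10 for proton (0.33). Over all genes 48.6 and 50.4% were higher, and the mitochondrial genes were also higher in the other barcodes (0.39 and 0.37).

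**Figure D4:**
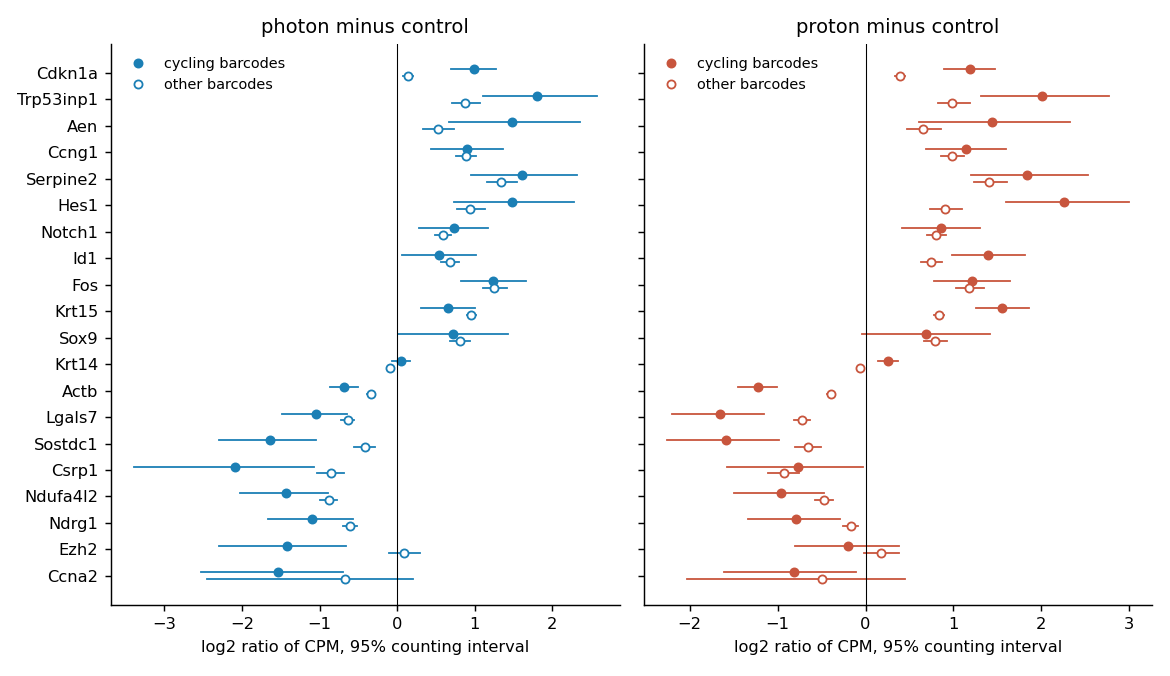
Log2 ratios of CPM against control for 20 named genes, with 95% counting intervals, in cycling (filled) and other (open) barcodes of the photon library (left) and the proton library (right). Intervals of Cdkn1a in cycling and other barcodes do not overlap in either panel, while those of Notch1, Fos and Sox9 do.

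Some values rest on 1 barcode. The 36 interferon response genes had 414 UMIs in photon cycling barcodes, or 1704 CPM against 284 in control and 555 in proton, but 319 of them came from 1 barcode of 14455 UMIs, with 221 interferon UMIs per 10000 against 9.85 in the next. That barcode had UMIs of all 10 rule genes, 26 UMIs of Krt14, 50 of the 51 UMIs of Isg15 and 120 of the 120 UMIs of Cxcl10, a chemokine. Without it the photon level was 416 CPM (336 to 508), against 487 (397 to 591) in proton and 277 (234 to 326) in control when the highest barcode of each was also left out. Fst (follistatin), with ratios of -1.07 and -1.73, had 93.6% of its control UMIs in 1 barcode, and without that barcode the ratios became 2.76 and 2.10. Crabp2, a retinoic acid binding protein, had 62.8% of its photon UMIs in 1 barcode, without which 2.80 became 1.47. Ppbp, a chemokine, had 58.3% of its control UMIs in 1 barcode, and without it -2.09 and -1.52 became -0.91 and -0.34. Every comparison between libraries here rests on 53, 25 and 22 barcodes.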

How the data were processed

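Single cells of day 7 organoids were measured with 10x 3′ chemistry in 3 libraries. The authors deposited whole-number UMI counts per gene and barcode, aligned per the labels with Cell Ranger 5 to mm10. The matrix headers name software version 3.0.1, and the study's methods name GRCm39. The lists of barcodes held down to 500 UMIs, and no doublet removal was applied here. UMIs of the cycling and of the other barcodes were summed per library and scaled to CPM. Log2 ratios used a pseudocount of 1 CPM and genes with at least 50 UMIs over the classes compared, and a 2-fold limit was used for calls. Intervals were exact Poisson, Clopper-Pearson or conditional binomial at 95%. The members, the gene lists and the comparisons were chosen with earlier results of these data known, among them the Notch, interferon and p53 genes.

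Genes were named by this rule: the 10 rule genes, the 12 genes highest and 12 lowest over all 3 libraries in cycling against other barcodes, the 8 with the highest lower bound and 8 with the lowest upper bound in each irradiated comparison, genes the study names, and up to 4 members with the most UMIs of each list. Genes named beyond it (Pttg1, Ccne1, Chek2, Rad18, Topbp1, Cdc25b, E2f8, Cdkn2d, Rrm2, Aen, Ccng1, Ndrg1, Ptprc, Elf3, Nt5e) were chosen after their values were seen. Unnamed gene models were counted but not described. Some genes that the rule names are not reported here. Barcodes were thinned to 2000 UMIs, doublets were marked with Scrublet, and each choice was varied in turn. The scripts were tested on simulated data. Software was Python 3.11.15, NumPy 2.4.6, SciPy 1.17.1, pandas 2.3.3, Scanpy 1.11.5 and matplotlib 3.10.9. The day 11 and fresh tissue libraries were not used here.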

Additional observations from a re-analysis of the deposited data

Results flagged for a closer look

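Between control and an irradiated library, some named genes were higher in cycling than in other barcodes of one and lower in the other. Only genes whose counting intervals excluded 0 in both libraries are listed, so other genes above also change sign. Photon and proton were not set against each other in this search. Such differences of sign were not tested, since each library is 1 sample. Actb had a log2 ratio of CPM of 0.58 in control and -0.26 in proton organoids. Lgals7 had 0.30 in control and -0.63 in proton organoids. Crabp2 had -0.88 in control and 1.94 in photon organoids, where 1 barcode held 62.8% of its UMIs. Ppbp had 0.79 in control, where 1 barcode held 58.3% of its UMIs, -2.28 in photon and -1.33 in proton organoids.

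Barcodes with at least 5 of the 10 cell cycle genes were also present outside the quality limits, and entered no comparison. They numbered 27 in control, 7 in photon and 22 in proton organoids.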

How the results depend on the processing

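The share of cycling barcodes followed the cut on the rule genes. With at least 4 genes it was 8.80% in control, 3.50% in photon and 3.32% in proton organoids, and with at least 6 genes it was 1.25% in photon organoids. With at least 5000 UMIs a barcode it was 3.34% in photon and 2.98% in proton organoids, and with barcodes thinned to 2000 UMIs and the cut kept at 5 genes it was 3.09, 0.583 and 0.524%. The control share was the highest under each of these.

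Counts of genes past 2-fold moved with the UMI minimum, the depth and the pseudocount. The 124 higher genes of cycling barcodes became 66 after thinning, 81 with a pseudocount of 10 CPM and 40 with a minimum of 200 UMIs, and the 77 lower genes became 156, 44 and 45. The 29 higher genes in photon became 1 after thinning and 2 with a minimum of 200 UMIs, and the 27 in proton became 6 and 5. The 40 lower genes in photon became 6 after thinning, 4 with a minimum of 200 UMIs, 68 with the mean CPM per barcode and 66 without the barcode with most UMIs of each gene. The 36 in proton became 7, 4, 64 and 74. Fewer barcodes were left after thinning and fewer genes were tested with the higher minimum, and the cause of the other shifts was not tested.

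Computed ratios changed sign for few named genes. With the rule applied after thinning, which left 27, 7 and 6 barcodes, the computed values of -2.74 for the lowest ratio of Pclaf and -6.23 for Trp53inp1 in photon rest on 0 UMIs, depend on the pseudocount and show no direction, and Cdkn1a was -0.20 in both irradiated libraries from 7 and 6 UMIs. Isg15 in photon was -1.03 when the barcode with most of its UMIs was left out of each library, control included. It was -1.20 without the photon barcode highest in interferon genes, which held all but 1 of its photon UMIs. Both values thus rest on 1 photon UMI and show no direction. The latter alternatives were chosen after seeing the data. Shares moved by less than their counting interval and counts by less than 1.5 times with Malat1 at 0.5%, a mitochondrial share up to 10% and the highest Scrublet scores removed. Scrublet's own threshold marked 2 control and 0 photon but 1799 proton barcodes, so the highest scores by expected rate were used, which marked 1 cycling barcode, in photon organoids. They marked 378 control, 2674 photon and 2559 proton barcodes, of which only 11, 16 and 5 were within the limits. Their removal could thus change little and does not show how many cycling barcodes were doublets. No paired analysis was possible because each condition is 1 library. At this depth 22 to 53 barcodes per library limit every ratio.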
